A study of Homo sapiens with 6 samples.

Results

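TXNIP, its 4 arrestin-domain relatives ARRDC1 to ARRDC4, and the transcription factor partners MLXIP and MLX were described in HFL-1 fibroblasts carrying a HYAL1 lentivirus or an empty vector. These 7 genes, of 15277 tested, were found by name: every probe set whose annotation holds exactly 1 gene symbol, that symbol being one of the 7, was taken, which gave 23 probe sets. For each gene the probe set was chosen by its highest mean level over all 6 arrays, and the gene's other probe sets were read for agreement. The gene list itself was proposed with earlier results of this comparison known, so the differences of TXNIP and ARRDC4 are given as a description of these arrays and support nothing beyond them. Of the 7, only TXNIP and ARRDC4 differed between the groups past an adjusted p of 0.05, by 1.23-fold and 1.28-fold, both higher on the control-labelled arrays.

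HFL-1 is a human lung fibroblast line of fetal origin, and all 6 cultures received a lentivirus with polybrene in F-12K medium with fetal bovine serum. Of the 6 PrimeView arrays, which read the 3' part of transcripts, 3 are labelled HYAL1 overexpression and 3 are labelled as infected with the control vector CON335. No uninfected cells and no second line were analysed here, the infection was described as transient, and the titles call the replicates biological without saying how the cultures were separated. The p-values therefore measure the spread between these samples only.

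HYAL1, the hyaluronidase carried by the virus, went against the labels. Its log2 value was 4.81, 4.82 and 4.67 on the HYAL1-labelled arrays and 7.48, 7.49 and 7.46 on the control-labelled arrays. Every control-labelled array thus lay above every HYAL1-labelled array. The group means differed by at least 6.53-fold, a lower bound because HYAL1 on the HYAL1-labelled arrays lay under the median of the array's background probe sets (6.69 to 6.90). This difference of 2.71 on the log2 scale had an SE of 0.05 and an adjusted p of 7.80e-07 from limma, and an exact two-sided permutation test gave p = 0.10, the smallest that 3 arrays against 3 can give. The study's supplementary gene list heads the same arrays the other way round, so each direction below is given by label alone.

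The array medians ranged from 6.97 to 7.01 and the correlations between arrays from 0.998 to 0.999. Fibroblast markers were above the background median for 10 of 10 genes, whereas 3 of 6 epithelial, 4 of 5 endothelial and 2 of 3 leukocyte markers lay below it on all arrays and 0 of these 14 passed the test. KRT18, KRT19, TEK and CD68 lay above that median on all arrays. The mean of the 10 fibroblast markers was 11.94 to 11.96 on the HYAL1-labelled arrays and 12.00 to 12.05 on the control-labelled arrays. COL1A1, a collagen chain and the 1 fibroblast marker that passed, was higher on the control-labelled arrays by 0.27. PDGFRA (-0.07) and PDGFRB (-0.01) were lower there, and neither passed. The part of these marker differences in the results below was not tested. The 9 background probe sets moved the other way and were higher on the HYAL1-labelled arrays by 0.02 to 0.14. In bulk RNA, a change in the number of cells of a kind and a change in RNA per cell cannot be told apart.

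TXNIP, the thioredoxin-interacting protein, is an α-arrestin that binds thioredoxin through a disulfide and lowers glucose uptake by drawing glucose transporters from the cell surface. The ARRDC proteins share its arrestin fold and serve as adaptors that bring membrane cargo to ubiquitin ligases of the NEDD4 family. MLXIP, also called MondoA, senses glucose 6-phosphate, enters the nucleus with its partner MLX and binds carbohydrate response elements, and TXNIP and ARRDC4 are its best known targets.

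TXNIP was higher on all 3 control-labelled arrays. Its log2 value was 10.48, 10.44 and 10.49 on the HYAL1-labelled arrays and 10.74, 10.79 and 10.78 on the control-labelled arrays. The groups did not overlap, and the gap between them was wider than the range within either. The means were 10.47 ± 0.03 and 10.77 ± 0.03 (SD, n = 3), a difference of 0.30 with an SE of 0.03 and a 95% interval of 0.22 to 0.37 (adjusted p = 0.0124, limma over all 15277 genes). TXNIP held place 77 of all genes by difference on the control-labelled side. Of the genes called higher there, 64 moved by at least as much, a count that includes TXNIP itself and HYAL1. The call was lost without any 1 of 4 arrays. The adjusted p was 0.0695 without HYAL1-labelled replicate 1, 0.0889 without HYAL1-labelled replicate 2, 0.0516 without control-labelled replicate 2 and 0.0701 without control-labelled replicate 3, while the difference stayed at 0.28 to 0.32.

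The other TXNIP probe sets moved the same way. All 5 were above the background median and higher on every control-labelled array, with differences of 0.23 to 0.33, or 1.17-fold to 1.25-fold, and an adjusted p of 0.0139 to 0.0349 over all probe sets. In the probe set of the largest difference the log2 values were 9.58, 9.65 and 9.63 on the HYAL1-labelled arrays and 9.92, 9.96 and 9.96 on the control-labelled arrays. Probe sets of 1 gene were read from the same RNA on the same arrays, so they check the probes and not the cultures.

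ARRDC4, the α-arrestin that shares the control of TXNIP by MondoA and likewise lowers glucose uptake, moved with it. Its log2 value was 8.52, 8.52 and 8.60 on the HYAL1-labelled arrays and 8.91, 8.85 and 8.94 on the control-labelled arrays. Again the lowest control-labelled array stood clear of the highest HYAL1-labelled array. The means were 8.55 ± 0.05 and 8.90 ± 0.05 (SD, n = 3), and the difference was 0.35 with an SE of 0.04 and a 95% interval of 0.26 to 0.45 (adjusted p = 0.0140, limma). Among all genes 39 of those called on the control-labelled side moved by at least this much, ARRDC4 itself and HYAL1 included. Leaving out HYAL1-labelled replicate 1 or 2 raised the adjusted p to 0.0761 and 0.0889, and leaving out control-labelled replicate 1 or 3 raised it to 0.0663 and 0.0712, with differences of 0.33 to 0.38 over all 6 arrays left out in turn.

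The 3 probe sets of ARRDC4 differed by 0.32 to 0.46, or 1.25-fold to 1.37-fold, and none of them overlapped between the groups. The middle one by level showed the largest difference, with log2 values of 7.31, 7.38 and 7.51 on the HYAL1-labelled arrays and 7.88, 7.86 and 7.83 on the control-labelled arrays. Of the 3, 2 passed the test, and the third, which lay under the background median on all arrays, had an adjusted p of 0.0549.

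**Figure D1:**
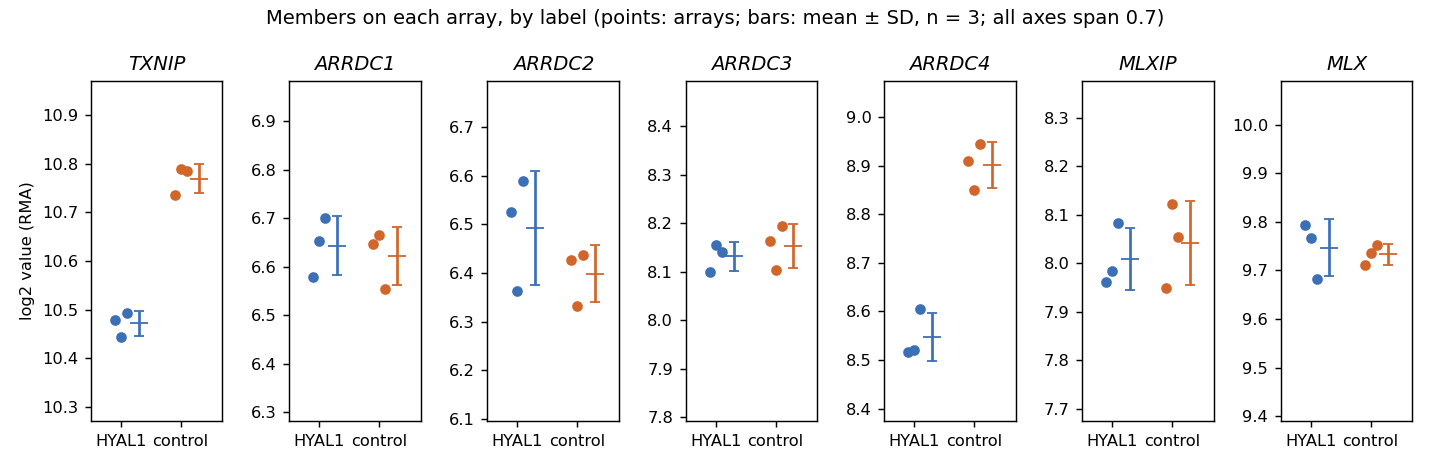
Log2 value of each of the 7 genes on each array, with 1 panel per gene; points are arrays, and the bars beside them give the mean ± SD of the 3 arrays of a label. All panels span the same height on the log2 scale but start at different levels; TXNIP and ARRDC4 separate by label, and the points of the other 5 genes overlap.

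Of the 7 genes, 2 were called higher on the control-labelled arrays, against 1.21% of all genes tested, and 0 were called higher on the HYAL1-labelled arrays, against 0.445% of all genes. The same 2 genes were those without overlap on the control-labelled side, where the share over all genes was 10.3%. Over the 23 probe sets, 7 were called higher on the control-labelled arrays, against 1.08% of all probe sets, and all 7 belong to TXNIP or ARRDC4. No overlap with the control-labelled side higher was found for all 8 probe sets of these 2 genes and for 3 of the other 15, against 10.7% of all probe sets. Since the list was drawn up with these differences in view, nothing is read from its counts against those shares.

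The promoters of TXNIP and ARRDC4 are shown because both genes moved and both are known targets of the MondoA and MLX pair. That of ARRDC3, an α-arrestin that did not pass the test, is printed beside them. These windows were chosen after the differences were seen, and whether their sites bear on the differences was not tested. Each is the 250 bases before a start site in RefSeq (GRCh38.p14), written 5' to 3' on the strand of the gene. Capitals mark CACGNG sites, the building block of a carbohydrate response element, and CCAAT boxes, each on either strand. CACGTG is one form of CACGNG, and matches may overlap one another.
TXNIP, chr1:145996580-145996829, minus strand: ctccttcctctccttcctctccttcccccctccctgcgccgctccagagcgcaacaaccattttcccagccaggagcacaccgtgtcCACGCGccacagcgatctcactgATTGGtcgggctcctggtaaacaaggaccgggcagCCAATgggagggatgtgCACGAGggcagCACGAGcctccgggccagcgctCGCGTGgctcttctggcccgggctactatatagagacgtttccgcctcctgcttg
ARRDC4, chr15:97960453-97960702, plus strand: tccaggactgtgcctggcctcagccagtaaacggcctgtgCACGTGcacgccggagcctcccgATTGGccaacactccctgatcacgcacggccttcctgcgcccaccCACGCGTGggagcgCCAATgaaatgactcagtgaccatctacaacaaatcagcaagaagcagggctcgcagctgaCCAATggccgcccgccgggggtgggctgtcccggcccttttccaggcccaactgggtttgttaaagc
ARRDC3, chr5:91383318-91383567, minus strand: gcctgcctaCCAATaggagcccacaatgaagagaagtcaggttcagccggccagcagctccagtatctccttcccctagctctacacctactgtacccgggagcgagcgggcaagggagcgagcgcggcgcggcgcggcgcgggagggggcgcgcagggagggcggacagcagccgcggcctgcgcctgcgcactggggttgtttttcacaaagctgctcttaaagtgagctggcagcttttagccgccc

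The TXNIP window held 4 CACGNG sites and 2 CCAAT boxes. A pair of the CACGNG sites stood 5 bases apart, as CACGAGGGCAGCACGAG, and ended 71 bases before the start, which is the known carbohydrate response element of this gene. Such a pair at that spacing occurred in 23 of 35114 RefSeq windows of the same length (0.0655%), and together with a CCAAT box in 9 (0.0256%). The ARRDC4 window held 3 CACGNG sites, 1 of them CACGTG, and 3 CCAAT boxes, with 0 pairs at this spacing. The ARRDC3 window held 0 CACGNG sites and 1 CCAAT box.

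A further RefSeq start of TXNIP and one of ARRDC3 were searched as well: the TXNIP window had 0 matches and the ARRDC3 window had 1 CACGNG site. The remaining genes, none of which passed the test, were searched too. The MLX window held 1 CACGTG site, 1 of the 2 ARRDC2 windows held 3 CACGNG sites, and ARRDC1 and MLXIP held 0. Over all windows CACGNG was found in 26.7%, CACGTG in 6.35% and CCAAT in 32%. GTAAACA, the letters of a forkhead site, was found in 2.98% of all windows, among them the first TXNIP window and the second ARRDC3 window, each with 1 match. A match is a stretch of letters and was not tested for binding in these cells.

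ARRDC3, an adaptor known for sending β-adrenergic receptors and integrin β4 to degradation, read 8.10, 8.16 and 8.14 on the HYAL1-labelled arrays and 8.16, 8.10 and 8.19 on the control-labelled arrays. The groups were interleaved. The difference was 0.02 with a 95% interval of -0.06 to 0.11 (adjusted p = 0.805, limma). Its 3 probe sets differed by 0.02 to 0.05, and 0 passed.

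ARRDC1, which recruits the machinery that sheds vesicles from the plasma membrane, and ARRDC2 each had 1 probe set, and both lay under the background median on all 6 arrays. ARRDC1 read 6.58, 6.65 and 6.70 on the HYAL1-labelled arrays and 6.65, 6.66 and 6.55 on the control-labelled arrays. ARRDC2 read 6.52, 6.36 and 6.59 against 6.43, 6.33 and 6.44. Neither gene separated by label. The differences were -0.02 for ARRDC1 (95% interval -0.13 to 0.09, adjusted p = 0.852) and -0.09 for ARRDC2 (95% interval -0.24 to 0.05, adjusted p = 0.489), and at these dim levels a change in either transcript could go unseen.

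The regulators themselves did not pass the test. MLXIP read 7.96, 7.98 and 8.08 on the HYAL1-labelled arrays and 7.95, 8.12 and 8.05 on the control-labelled arrays, a difference of 0.03 with a 95% interval of -0.09 to 0.16 (adjusted p = 0.804). MLX read 9.79, 9.77 and 9.68 against 9.71, 9.74 and 9.75, a difference of -0.01 with a 95% interval of -0.10 to 0.08 (adjusted p = 0.892). Both genes overlapped between the labels. MondoA is controlled largely by where it sits in the cell, which was not measured here. Its part in the differences of TXNIP and ARRDC4 was not tested.

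The 4 MLXIP probe sets ranged from -0.03 to 0.11 and the 6 MLX probe sets from -0.01 to 0.09, and 0 of these 10 passed. Among them 2 of MLXIP and 1 of MLX did not overlap, with all control-labelled arrays higher. That MLX probe set read 7.74, 7.82 and 7.74 on the HYAL1-labelled arrays and 7.85, 7.86 and 7.87 on the control-labelled arrays, and its adjusted p of 0.261 was the lowest of the 15 probe sets outside TXNIP and ARRDC4. Over those 15 the 95% intervals together ran from -0.24 to 0.25.

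**Figure D2:**
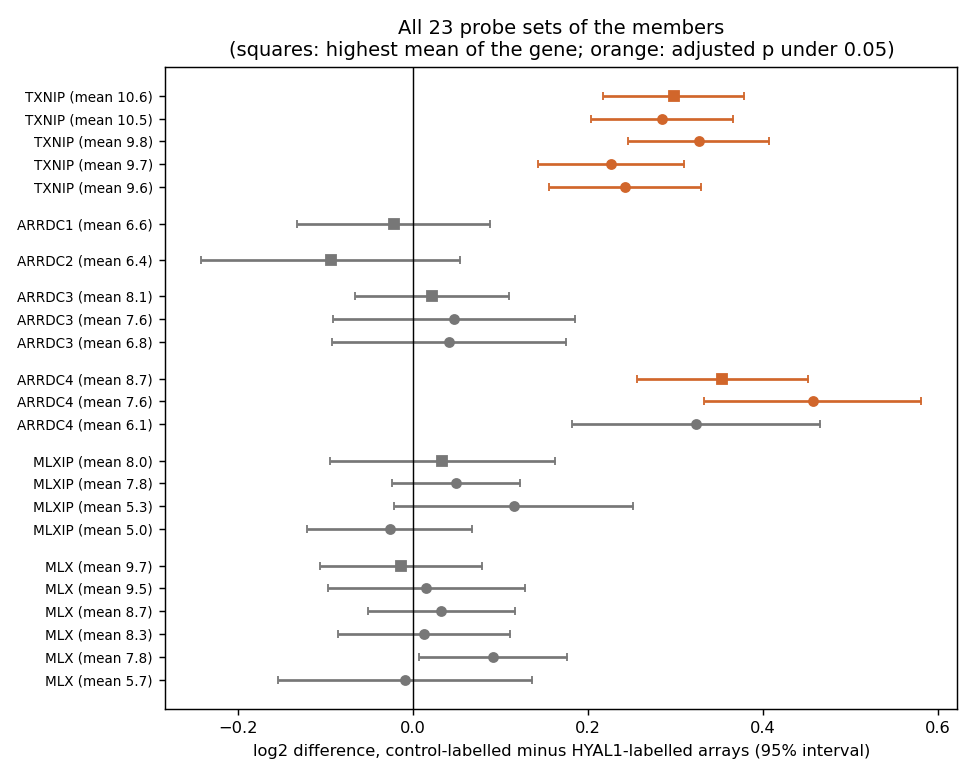
Difference in log2 value, control-labelled minus HYAL1-labelled arrays, for all 23 probe sets, grouped by gene and ordered by mean level; bars are 95% intervals, squares mark the probe set of highest mean, and orange marks an adjusted p under 0.05 over all probe sets. The 8 probe sets of TXNIP and ARRDC4 lie at 0.23 to 0.46, and the other 15 lie within 0.11 of 0.

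TXNIP and ARRDC4 correlated over the 6 arrays with r = 0.971, a description in which the step between the labels carries most of the weight. On the control-labelled arrays TXNIP was lowest on replicate 1 and ARRDC4 on replicate 2. On the HYAL1-labelled arrays TXNIP was lowest on replicate 2 and ARRDC4 on replicate 1, and both were highest on replicate 3. The genes whose pattern was most like that of TXNIP, by Pearson's r over the same 6 arrays, were DDIT4 (0.998), CADM1 (0.998), LGR4 (0.998), TTC13 (0.997) and OPN3 (0.996), and 31 genes exceeded 0.99. The LGR4 probe set lay under the background median on all 6 arrays. For ARRDC4 they were LRRN4CL (0.998), MGARP (0.998), PVR (0.997), CORIN (0.997) and CCL2 (0.996), with 34 genes above 0.99. All points share 6 arrays and 1 step, so any gene that steps cleanly by label ranks high.

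**Figure D3:**
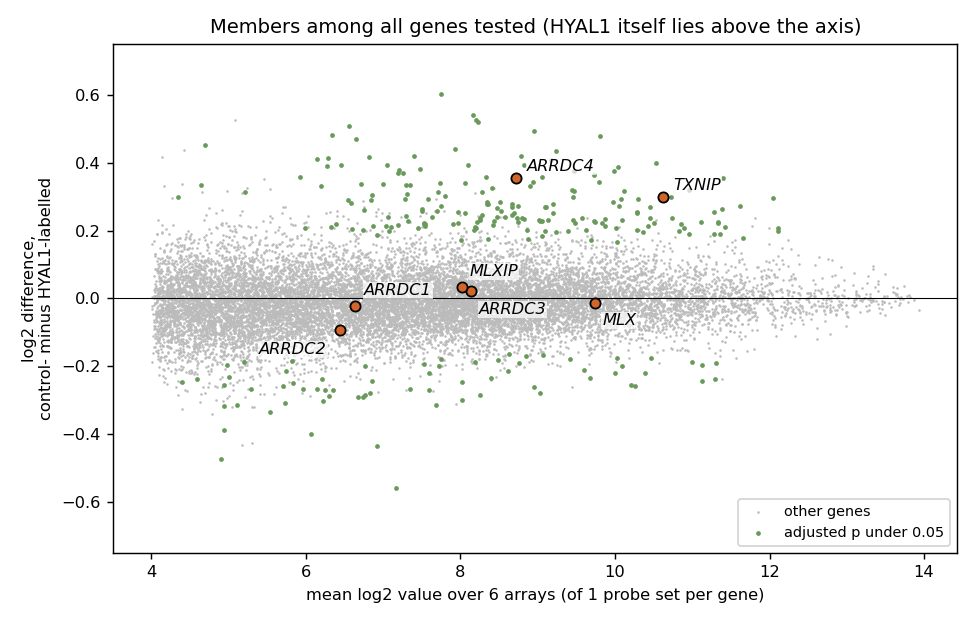
Difference between the labels against mean log2 value for all genes tested, 1 probe set per gene; green points passed at an adjusted p under 0.05 and the 7 genes are outlined and named. TXNIP (0.30) and ARRDC4 (0.35) lie among the 185 genes called higher on the control-labelled arrays, and the other 5 lie between -0.09 and 0.03, near the median of -0.01.

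Partners of these proteins were read from 8 lists of 99 genes in all, of which 90 were measured and the rest were not analysed here. In them 1 gene was called higher on the control-labelled arrays (1.11% of those measured, against 1.21% of all genes). On the HYAL1-labelled arrays 1 was called higher (1.11%, against 0.445% of all genes). The median difference was -0.01, the same as over all genes. At an unadjusted p under 0.05 the counts were 13 (14.4%) and 9 (10%), against 7.72% and 9.69% of all genes. Of the 90, 16 lay under the background median on all 6 arrays, where the background probe sets themselves were higher on the HYAL1-labelled arrays.

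DDIT4, also known as REDD1, an inhibitor of mTORC1 that forms a complex with TXNIP, was the one called on the control-labelled side. It read 8.33, 8.30 and 8.34 on the HYAL1-labelled arrays and 8.54, 8.56 and 8.56 on the control-labelled arrays, without overlap. The difference was 0.23 with an SE of 0.03 (adjusted p = 0.0212, limma), from 1 probe set, and with any 1 array left out the adjusted p was 0.0657 to 0.107. It came from the list of TXNIP regulators and partners, where 1 of 14 passed and the median was 0.00. In that list PRKAA1, a catalytic subunit of AMPK, which marks TXNIP for degradation, did not pass (-0.10, adjusted p = 0.242), and neither did PRKAA2, the other such subunit (adjusted p = 0.175), whose probe set lay under the background median on all arrays.

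Of 10 genes known to answer carbohydrate in liver through the MLX network, 0 were called on the control-labelled side and 1 on the HYAL1-labelled side. The shares over all genes were 1.21% and 0.445%, and nothing is read from a count of 1. The list median was -0.05. PKLR, GPD1, THRSP and G6PC1 lay under the background median on all arrays, and the median of the other 6 was -0.01. The gene called on the HYAL1-labelled side was SCD, the stearoyl-CoA desaturase. SCD read 10.55, 10.56 and 10.55 on the HYAL1-labelled arrays and 10.40, 10.34 and 10.38 on the control-labelled arrays. It was lower on every control-labelled array, with a difference of -0.18 and an SE of 0.03 (adjusted p = 0.0449, limma), and it did not pass with any 1 array left out (0.0829 to 0.180). KLF10, a repressor induced by glucose (-0.26, adjusted p = 0.0689), did not pass.

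Among ubiquitin ligases of the NEDD4 family and their adaptors, to which the PPxY motifs of α-arrestins bind, 0 of 11 passed, with a median of 0.06. Those of lowest adjusted p were NDFIP2, a membrane adaptor of these ligases (0.24, adjusted p = 0.0713), SMURF2, the ligase of SMAD proteins and TGFβ receptors (0.15, adjusted p = 0.0756), and HECW2 (0.16, adjusted p = 0.133). Another NDFIP2 probe set differed by 0.20, with an adjusted p of 0.0380 in the limma fit over all probe sets. At an unadjusted p under 0.05, 5 of the 11 genes were higher on the control-labelled arrays and 1 on the HYAL1-labelled arrays. The shares over all genes were 7.72% and 9.69%. NDFIP2 and SMURF2 passed under some other settings, which the closing section names.

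In the thioredoxin system, 0 of 17 measured genes passed and the median was 0.03. The nearest were MSRB3 (0.13, adjusted p = 0.141) and MSRA (0.10, adjusted p = 0.159), methionine sulfoxide reductases that draw on thioredoxin, and PRDX6, a peroxiredoxin (0.07, adjusted p = 0.319). Of the 17, 10 lay on the control-labelled side and 7 on the other. TXN, thioredoxin itself, differed by -0.08 with overlap (adjusted p = 0.399, limma). Its other probe sets differed by -0.10 to -0.14 and none passed, with a lowest adjusted p of 0.0818 in the limma fit over all probe sets. For glucose entry and phosphorylation 0 of 12 passed, with a median of 0.00. SLC2A12, a glucose transporter (0.13, adjusted p = 0.186), and HK2, the inducible hexokinase (0.15, adjusted p = 0.222), had the lowest adjusted p. SLC2A4, another glucose transporter, came next and was lower on the control-labelled arrays (-0.12, adjusted p = 0.256).

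The other arrestin-fold genes, among them the β-arrestin ARRB1 and retromer subunits, gave 0 of 7 with a median of -0.02, and 4 of the 7, among them ARR3, the cone arrestin (adjusted p = 0.254), lay under the background median on all arrays. The MYC, MAX and MLX network gave 0 of 11 with a median of -0.04, with MXD1 at 0.10 (adjusted p = 0.211) and MNT at -0.10 (adjusted p = 0.253), both repressors that pair with MAX or MLX. Cargo and sorting partners of the ARRDC proteins gave 0 of 8 with a median of -0.04, with STAM2, an endosomal sorting protein, at -0.09 (adjusted p = 0.348). The differences of these 3 lists together lay between -0.13 and 0.10.

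**Figure D4:**
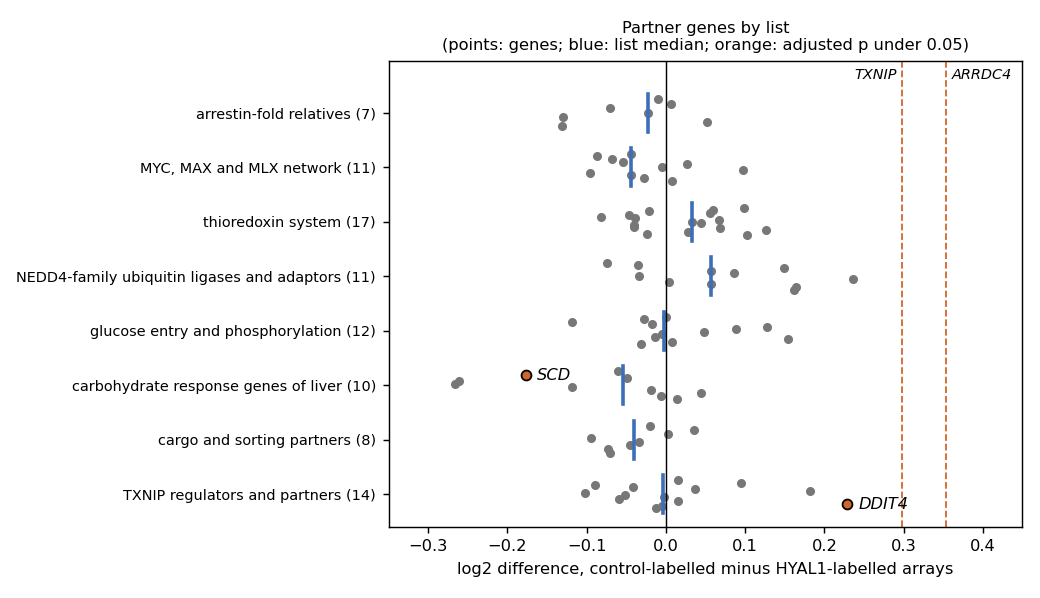
Difference in log2 value, control-labelled minus HYAL1-labelled arrays, for the 90 measured partner genes in 8 lists (number measured in brackets); each point is a gene, blue bars are list medians, and dashed lines give TXNIP and ARRDC4. Only DDIT4 (0.23) and SCD (-0.18), in orange, passed at an adjusted p under 0.05, and list medians lie between -0.05 and 0.06.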

How the data were processed

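RNA of 6 samples was hybridised to PrimeView arrays, 3 per label. The authors deposited log2 values of 39341 probe sets made by RMA. Their processing notes list Affymetrix Power Tools beside RMA, and the version of either is not given in the sources used here. RMA adjusts the background and puts all arrays on 1 distribution, so a shift shared by most genes would not show. Of the probe sets, 36097 had 1 symbol, 1397 several and 1847 none, and 0 of those with several named any of the 7 genes. HYAL1 carries no symbol in this annotation, and its probe set was found by matching its values in the study's supplementary list to within 0.001. All mapped columns were used and 0 were left unmapped.

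The highest-mean probe set of each gene was fitted in R 4.3.3 with limma 3.58.1 (empirical Bayes, 1 prior variance, prior degrees of freedom 3.25), with Benjamini-Hochberg adjustment over all 15277 genes and a threshold of 0.05; probe sets were fitted likewise over all 39341. No probe set was dropped as dim. Mean levels served to choose 1 probe set per gene and were compared with the background median, and no order of levels was read between genes. Fold changes are powers of the log2 difference. The number of arrays limits the precision. The fit was tested on simulated data. Promoters were searched with pandas 2.3.3 under Python 3.11.15, and figures drawn with matplotlib 3.10.9.

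The members and lists were chosen with earlier results of these data known. By rule, the text names every member, the 5 genes most like TXNIP and the 5 most like ARRDC4. From each list it names the genes that passed and up to 3 others of lowest adjusted p. COL1A1, PDGFRA, PDGFRB and TXN were named after their values were seen, and further genes for their level against the background median or for passing under another setting. Of 15276 symbols, 15264 were found in the RefSeq gene table. Alternatives were other probe set rules, filtering, scaling, priors, weights, the unpaired t-test (named in a figure legend for these arrays, where the methods give empirical Bayes modelling), the replicate number as a block, and each array left out. The replicate numbers were not taken as pairs in the main fit, and the closing section gives the fit with them as a block. Columns of the authors' own comparisons were not used.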

Additional observations from a re-analysis of the deposited data

How the results depend on the processing

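TXNIP and ARRDC4 were higher on the control-labelled arrays under all 17 alternatives, and passed under 12 and 11 of them, with adjusted p from 1.71e-06 to 0.0889 and from 9.18e-06 to 0.0889. ARRDC1, ARRDC2, ARRDC3, MLXIP and MLX passed under 0 of 17, and only ARRDC2 and ARRDC3 of them kept their sign in all. With an array left out, TXNIP differed by 0.2835 to 0.3153 and ARRDC4 by 0.3324 to 0.3821, the member genes called numbered 0 to 2 and the member probe sets 0 to 2, against 2 and 7. The unpaired t-test left TXNIP called and ARRDC4 not (0.3538, adjusted p = 0.0709), so 1 member gene, and 1 member probe set. It used fewer degrees of freedom per gene.

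Deviations from the label means correlated between same-numbered arrays with r of 0.06, -0.02 and 0.24 for numbers 1, 2 and 3. Numbers 1 and 3 correlated best with their own, while number 2 reached 0.16 with another number. Whether arrays of 1 number were handled together is not stated in the titles and was not tested. With the replicate block the differences stayed at 0.2979 for TXNIP (adjusted p = 0.0754) and 0.3538 for ARRDC4 (adjusted p = 0.0581), with 0 member genes, 0 member probe sets and 0 list genes called in either direction, and 1 gene of all.

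All genes called numbered 253. They were 729 with the probe set of lowest p, 673 after a filter that removed the dimmest 30% of genes, 1025 with a prior variance trend, 1078 with the trend made robust, 406 with array weights, 90 by the unpaired t-test and 15 to 52 with an array left out. List genes called on the control-labelled side (1) were 2 by the mean of probe sets, 4 by lowest p, 3 with the filter, 7 with either trend, 2 with weights, and 0 with any array left out. Those on the HYAL1-labelled side (1) were 2 by lowest p, filter, quantile normalization, either trend and weights, and 0 with median centring, by the t-test, in the fit on all probe sets and with an array left out. SMURF2 passed by lowest p, with the filter and with either trend, NDFIP2 under these and by the mean of probe sets and with weights, and KLF10 under the settings of SMURF2 and with quantile normalization and weights. HECW2, MSRB3, MSRA and PRDX6 passed with either trend, and NEDD4L by lowest p. The cause of these changes was not tested. Signal over background limits ARRDC1, ARRDC2, LGR4 and 16 of the 90 list genes, whose probe sets were dim on all arrays.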
